A study of Mus musculus with 23 samples.

Results

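The surface proteins that are used to sort blood stem cells, and the 6 genes that encode them, were followed in the same single cells. The genes were Slamf1, Kit, Cd48, Procr, Flt3 and Ly6a, chosen by name as the genes behind the antibody panel of the study, and they are 6 of the 32285 genes listed in the deposited matrices. Their proteins were read by antibodies that carry DNA tags: CD150 for Slamf1, CD117 for Kit, CD48 for Cd48, CD201 for Procr, CD135 for Flt3, and a tagged streptavidin-PE that binds biotinylated Sca1 antibody for Ly6a. All 6 genes had counts in every library.

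Stem cells and multipotent progenitors (MPPs) of mouse marrow lie within the KSL compartment, defined by Kit on the surface, Sca1 on the surface and no lineage markers. Within it, CD150, CD48 and CD135 split the cells: long-lived stem cells carry CD150 and lack CD48 and CD135, MPP2 cells carry both CD150 and CD48, MPP3 cells carry CD48 alone, and MPP4 cells carry CD135. CD201 is a further marker of stem cells. Sorting reads the protein, whereas most single-cell data read the RNA, so how far each transcript follows its protein bears on any set of cells named from RNA.

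Floxed alleles of Ezh2 (Ezh2fl/fl) or Jarid2 (Jarid2fl/fl) were deleted with Mx1-Cre, an interferon-inducible Cre that is active in blood cells and in other tissues. All groups, Control included, are labelled Mx1-Cre, and the labels do not say whether Control mice carried a floxed allele. Ezh2 is the catalytic subunit of Polycomb repressive complex PRC2 and Jarid2 is one of its co-factors. At baseline, KSL cells of untransplanted mice 2 months old gave 6 libraries with RNA and antibody counts of the same cells: Control, Ezh2 KO and Jarid2 KO, each with 1 male and 1 female library. In the transplant experiment, 500000 donor marrow cells were given with competitor marrow, and donor KSL cells were sorted 18 weeks later for RNA alone: 1 Control, 2 Ezh2 KO and 2 Jarid2 KO libraries. The number of mice behind a library is not given in the sources used here, so p-values measure the spread between libraries.

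Between 6723 and 9208 cells per baseline library and 4354 to 6149 per transplant library were kept, with a median of 10717 to 12652 and 11674 to 17019 RNA UMIs (unique molecular identifiers, each one counted molecule) per cell. The median baseline cell had 1481 to 2200 antibody UMIs, and 9 to 39 kept barcodes were shared between any pair of libraries. Ezh2 stood at 209 and 192 CPM (counts per 1000000 UMIs of the library) in baseline Control and at 162 and 147 in Ezh2 KO, and after transplantation at 182 in Control and 38.6 and 46.6 in Ezh2 KO. Jarid2 was not lower in the libraries labelled Jarid2 KO: 158 and 149 CPM in baseline Control against 214 and 202, and 38.4 against 56.8 and 56.9 after transplantation. The libraries tag transcripts at the 3′ end, which need not cover the deleted exons, so these counts do not check the Jarid2 label, and "Jarid2 KO" below means the libraries so labelled. Cells had been sorted on surface Kit and Sca1 before they were tagged, so the CD117 and Sca1 ranges below are those of sorted cells.

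Cd48 and Slamf1 belong to the SLAM family of immune cell receptors and lie in the same cluster on chromosome 1 of build GRCm38.p6, at chr1:171681245-171705258 and chr1:171767131-171801184. Their start-site regions are shown because, of the 4 gates drawn below, the stem gate had the most Slamf1 RNA and the least Cd48 RNA. Both proteins are high in the MPP2 gate. The 250 bases before the start site in the RefSeq promoter table are chr1:171681742-171681991 for Cd48 and chr1:171766882-171767131 for Slamf1, both on the plus strand. Capitals mark matches to the 4 motifs searched on both strands: a motif of GATA factors (AGATAA), one of RUNX factors (TGTGGT), one of ETS factors (AGGAAG) and an E-box (CAGCTG).
Cd48: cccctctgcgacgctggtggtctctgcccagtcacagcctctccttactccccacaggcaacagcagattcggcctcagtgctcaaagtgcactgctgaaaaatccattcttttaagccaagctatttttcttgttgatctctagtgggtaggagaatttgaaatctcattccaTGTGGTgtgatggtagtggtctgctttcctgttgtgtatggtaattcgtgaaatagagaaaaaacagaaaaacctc
Slamf1: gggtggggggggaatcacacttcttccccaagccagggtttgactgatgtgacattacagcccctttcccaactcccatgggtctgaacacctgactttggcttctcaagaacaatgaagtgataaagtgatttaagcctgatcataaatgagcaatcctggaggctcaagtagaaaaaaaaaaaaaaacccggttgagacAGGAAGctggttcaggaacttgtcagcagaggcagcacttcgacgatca
The Cd48 window held 1 RUNX match, which 14.0% of 32851 mouse promoters of this length hold, and the Slamf1 window held 1 ETS match, which 29.5% hold. The windows held 4 and 3 CpG dinucleotides, against a median of 6. A match describes letters and not a bound factor. The RefSeq table matched 5 of the 6 genes. The Cd48 start site used there lies inside the gene interval given above.

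Every one of the 6 transcripts rose with its own protein. In each library cells were ranked by the UMI count of one antibody and split into quintiles (groups of equal size), and the pooled RNA of the top quintile was set against that of the bottom quintile. The log2 ratio was above 0 in 6 of 6 libraries for all 6 genes (exact two-sided sign-flip permutation test over 6 libraries, p = 0.03125, the smallest it can give, and 0.03125 after Benjamini-Hochberg (BH) adjustment over the 6 tests). The sizes differed widely.

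The strongest gradients belonged to Cd48 and Slamf1. Cd48, a GPI-anchored ligand of the SLAM family, ran from 3.06 and 3.16 CPM in the lowest quintile of CD48 antibody to 185 and 164 in the highest in the Control libraries, from 11.2 and 5.34 to 194 and 188 in Ezh2 KO, and from 2.01 and 2.20 to 148 and 126 in Jarid2 KO. The mean log2 ratio was 5.46 ± 0.74 (SD, n = 6 libraries), or 43.9-fold. The lowest quintile of Ezh2 KO held more Cd48 RNA than that of any other library, and the ratio was smallest there. Slamf1, the receptor CD150, had a mean log2 ratio of 5.45 ± 0.44, or 43.8-fold, but from very low levels: 0.237 to 0.751 CPM in the lowest quintile and 17.9 to 25.4 in the highest. Its rise was concentrated at the top, with a mean of 0.917 CPM in quintile 3, 2.41 in quintile 4 and 20.8 in the highest, and it was not monotone in 2 of the 6 libraries, whereas the other 5 genes rose at each step in all 6.

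Flt3, the receptor CD135 for FLT3 ligand, climbed evenly: 26.5 ± 4.06, 68.4 ± 17.2, 173 ± 35.7, 371 ± 61.2 and 582 ± 41.6 CPM (mean ± SD, n = 6) from the lowest to the highest quintile of CD135 antibody. Its log2 ratio was 4.47 ± 0.25, the least variable of the 6 genes. Procr, the endothelial protein C receptor CD201, had a ratio of 3.15 ± 0.34, from 4.34 to 8.72 CPM at the bottom to 34.6 to 70.4 at the top. Ly6a, which encodes Sca1, had a ratio of 2.62 ± 0.30, from 15.0 to 32.1 CPM to 133 to 171. Ly6a is one of several near-identical Ly6 genes, so its RNA counts may include a close relative. The biotinylated antibody is described as reacting with Ly-6A/E.

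Kit, the stem cell factor receptor, had the shallowest gradient. It stood at 70.5 to 196 CPM in the lowest quintile of CD117 antibody and 302 to 351 in the highest, a log2 ratio of 1.28 ± 0.53 or 2.43-fold. The Ezh2 KO libraries had the lowest bottom quintiles, at 70.5 and 106 CPM, and the steepest ratios, at 2.18 and 1.54, against 0.84 to 1.38 in the other 4 libraries. Cells with B-lineage transcripts (defined below) made up 19.3% to 35.1% of Ezh2 KO, 7.26% to 14.9% of Control and 8.86% to 9.96% of Jarid2 KO cells. Their median CD117 count was 98 to 186 UMIs against 207 to 291 in the other cells. Kit also passed the test along CD117 without these cells, as given below with the alternatives. The ratios of single libraries without them are not given here, so their part in the differences between libraries was not tested. Between quintile 3 and the highest quintile Kit RNA moved only from 283 ± 17.0 to 321 ± 19.3 CPM while the median CD117 count moved from 230 to 412.5 UMIs (mean of the library medians). Cells with more CD117 or CD48 antibody also held more RNA in all: the median was 8805.5 to 9949 UMIs in the lowest quintile of CD117 and 14147 to 18087 in the highest, and 8531.5 to 10616 against 16039 to 20306 for CD48. The CPM values are relative to that RNA.

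**Figure D1:**
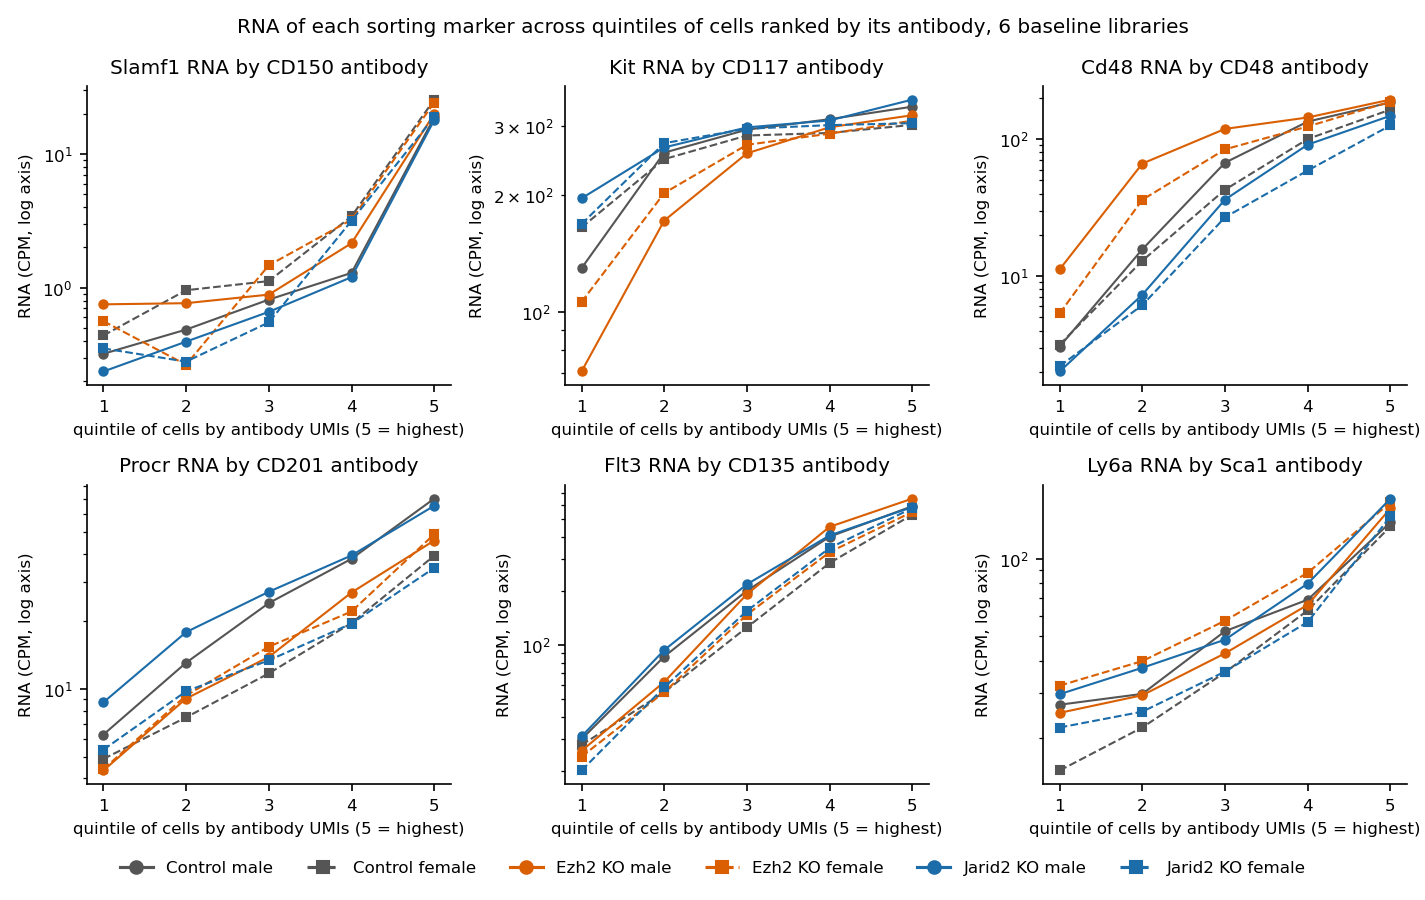
RNA level (CPM, log axis) of each gene in quintiles of cells ranked by UMIs of the matching antibody; each line is 1 baseline library, coloured by genotype, solid for male and dashed for female. Cd48 rises from 2.01 to 11.2 CPM in the lowest quintile to 126 to 194 in the highest, whereas Kit flattens above quintile 3.

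The transcript followed its own protein more closely than any of the other 5 for Slamf1, Kit, Cd48, Flt3 and Ly6a. In each library the own log2 ratio was compared with the largest ratio of the same gene along any other antibody. The own ratio exceeded it by 4.23 ± 0.58 for Cd48, 3.18 ± 0.50 for Slamf1, 3.08 ± 0.64 for Flt3, 1.73 ± 0.43 for Ly6a and 0.59 ± 0.32 for Kit, each in 6 of 6 libraries (exact sign-flip permutation p = 0.03125, 0.0375 after BH adjustment over 6 tests). Procr missed the threshold, with 0.70 ± 0.53 in 5 of 6 libraries (exact permutation p = 0.0625): its RNA rose by 3.15 along CD201 and by 2.45 ± 0.38 along Sca1. The CD201 and Sca1 antibodies ran together in single cells, with a Spearman rho of 0.52 to 0.61 within libraries.

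Some transcripts fell along a different protein. Slamf1 RNA fell along CD135 (-4.88 ± 0.41) and along CD48 (-3.06 ± 0.68), Flt3 RNA fell along CD150 (-3.17 ± 0.43), and Procr RNA fell along CD48 (-3.21 ± 0.25), each below 0 in 6 of 6 libraries. The same relation was weaker from the other side, with Cd48 RNA at -1.46 ± 0.41 along CD150 and -1.55 ± 0.38 along CD201. Ly6a RNA fell along CD117 (-1.67 ± 0.61) and along CD48 (-1.50 ± 0.37). Cd48 RNA showed no common direction along CD117, above 0 in 3 of 6 libraries.

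**Figure D2:**
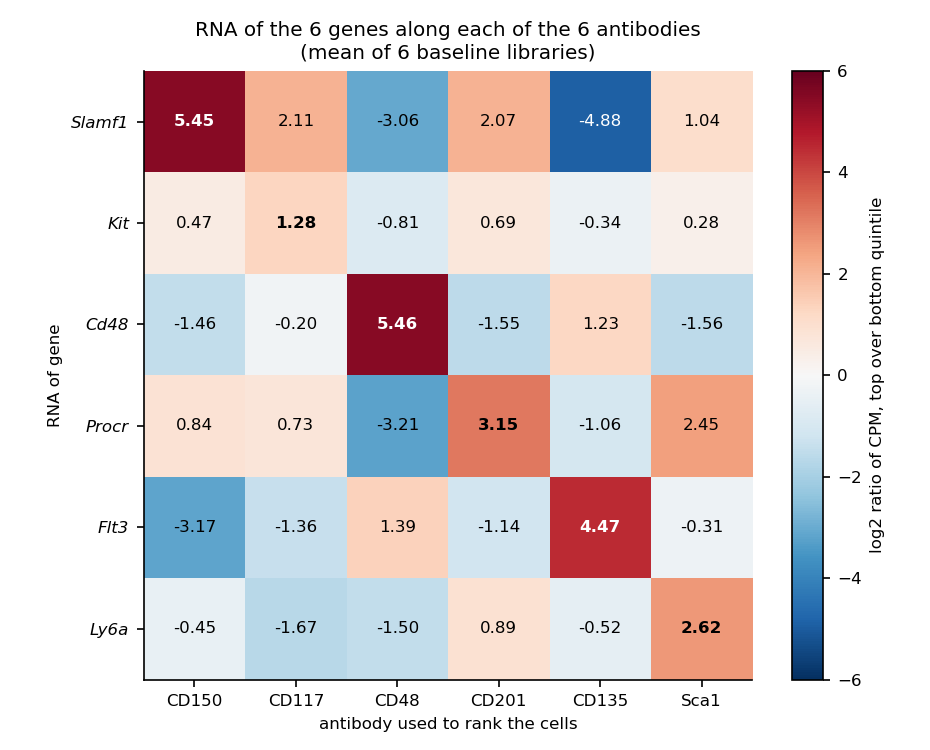
Mean log2 ratio of RNA (CPM) between the top and bottom quintile of cells for each gene (rows) and each ranking antibody (columns) over 6 baseline libraries; bold marks the gene's own antibody. The own antibody has the largest value in every row, from 1.28 for Kit to 5.46 for Cd48, and Slamf1 RNA along CD135 is the most negative cell at -4.88.

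Other genes followed some antibodies more steeply than the gene of the marker itself. Among the 6790 genes with a mean of at least 20 CPM, the own gene ranked 3 for CD201, 4 for CD135, 4 for Sca1, 12 for CD48 and 107 for CD117, and Slamf1, at 5.33 CPM, lay under that minimum. Along CD150 the steepest were Pf4, a platelet chemokine (5.67), Car1, a carbonic anhydrase (4.95), Apoe (3.85), Slc25a21 (3.71) and Rab27b (3.50), and the most negative were Sema3d (-4.26), Wfdc17 (-3.90) and Dntt (-3.85), the terminal transferase of lymphoid progenitors. Along CD117 they were Car1 (4.46), Pcdh7 (3.91), Slc25a21 (3.51), Sdsl (3.12) and Dach1 (3.11), against the pre-B genes Igll1 (-7.11) and Vpreb2 (-7.00) and the B-cell factor Pax5 (-6.98).

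Along CD48 the steepest were the granule protease gene Ctsg (7.06) and 4 genes of lymphoid cells: Pax5 (6.72), Vpreb3 (6.58), Igll1 (6.48) and Il7r (6.30). The most negative were Igha (-4.19, but above 0 in 1 of 6 libraries), Nbea (-4.15) and Lhcgr (-4.14). Along CD201 they were Igha (4.97), Lhcgr (3.35), Procr itself (3.15), Mamdc2 (2.83) and Car1 (2.70), against Dntt (-3.49), Arpp21 (-3.47) and Il7r (-3.42). Along CD135 they were Wfdc17 (5.54), Sema3d (4.65), Ddx4 (4.64), Flt3 itself (4.47) and Ncf1 (3.83), against the immunoglobulin genes Iglc1 (-6.65), Igkc (-6.47) and Iglc2 (-6.29). Along Sca1 they were Igha (5.37), Iglc1 (2.84, above 0 in 5 of 6 libraries), Abcg3 (2.67), Ly6a itself (2.62) and Jchain (2.61), against the granule genes Elane (-3.07), Ctsg (-3.01) and Mpo (-2.74). These values are mean log2 ratios over 6 libraries and carry no test. The immunoglobulin gene Igha varied widely between libraries, from 1.90 to 8.32 along Sca1 and from 3.01 to 6.92 along CD201. Which cells or free RNA the immunoglobulin transcripts came from was not tested.

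In single cells the transcript was a partial reading of the protein. Within libraries, Spearman's rho between RNA (UMIs relative to the total of the cell) and the own antibody was 0.70 to 0.78 for Flt3, 0.57 to 0.68 for Cd48, 0.27 to 0.49 for Kit, 0.33 to 0.38 for Ly6a, 0.25 to 0.36 for Procr and 0.26 to 0.32 for Slamf1. Each rho is over the 6723 to 9208 cells of 1 library, which share depth and staining. A partial rho held fixed both the total RNA of the cell and the summed UMIs of the other antibodies. This partial rho was 0.72 to 0.81 for Flt3, 0.48 to 0.57 for Cd48 and 0.29 to 0.52 for Kit. For Ly6a it was 0.30 to 0.33, for Procr 0.23 to 0.33 and for Slamf1 0.25 to 0.31. The part of total RNA alone was not tested.

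The protein rose with each further transcript counted. Cells with 0, 1, 2 and at least 3 Cd48 UMIs had median CD48 antibody counts of 289, 1126, 1629 and 2244 UMIs (median of the 6 library medians). For Slamf1 and CD150 they were 18, 149, 252 and 313, and for Flt3 and CD135 they were 15.5, 27, 39.8 and 86.5. For Procr and CD201 the steps were 47, 75.25, 102 and 138.5, for Ly6a and Sca1 336.5, 447, 546 and 728, and for Kit and CD117 135.5, 190, 216 and 263. The first Slamf1 molecule counted went with a rise in CD150 antibody from 18 to 149 UMIs, and the first Kit molecule with a rise in CD117 from 135.5 to 190.

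A count of 0 transcripts did not mark a cell without the protein. To compare cells at 1 depth, each was thinned to 5000 RNA UMIs, which left out 337 to 708 shallower cells per library. At that depth Slamf1 RNA was found in 7.51% to 12.7% of cells in the top quintile of CD150 and in 0.155% to 0.617% of the bottom quintile, and before thinning in 16.1% to 25.1% and 0.275% to 1.03%. Cd48 RNA was found in 45.2% to 59.1% and 0.877% to 4.50% after thinning, and in 74.6% to 90.2% and 1.85% to 9.73% before it. Flt3 was found in 88.8% to 93.0% and 10.4% to 13.6%, Kit in 73.8% to 79.7% and 26.2% to 54.1%, Ly6a in 40.5% to 49.8% and 7.35% to 15.0%, and Procr in 19.8% to 31.2% and 2.32% to 5.70% of thinned cells. Free RNA in the droplets can add to each share. The bottom quintile is not free of protein for Kit and Ly6a, since the cells were sorted on CD117 and Sca1, so its share is no measure of background for these genes.

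Each antibody was then split into high and low cells at the threshold that best separates the pooled log2 counts of the 2 Control libraries (Otsu's method, on counts centred between libraries), at 42.8 UMIs for CD150, 172 for CD117, 550 for CD48, 61.8 for CD201, 39.4 for CD135 and 462 for Sca1. Between 4.21% and 7.95% of cells lay within 0.25 log2 units of the CD150 threshold and 5.25% to 9.06% of the CD48 threshold, but 10.0% to 12.7% of the CD135, 15.7% to 20.4% of the CD201, 13.3% to 23.2% of the CD117 and 20.7% to 24.5% of the Sca1 threshold, so the CD117, CD201 and Sca1 classes are ranges and not types. Of the cells with a Slamf1 UMI, 73.1% to 85.8% were CD150-high, yet only 17.6% to 21.1% of CD150-high cells had a Slamf1 UMI, against 0.771% to 1.63% of CD150-low cells. Of the cells with a Cd48 UMI, 83.4% to 96.0% were CD48-high, and 59.8% to 71.4% of CD48-high cells had one, against 8.54% to 11.0% of CD48-low cells. Flt3 had a UMI in 91.9% to 94.9% of CD135-high cells, but also in 34.6% to 43.8% of CD135-low cells. For Procr these shares were 24.99% to 40.1% and 8.95% to 16.1%, for Ly6a 52.0% to 61.2% and 22.7% to 33.6%, and for Kit 92.5% to 95.5% and 59.3% to 72.2%. These shares are unthinned, and CD48-high cells had more RNA (median 12164.5 to 13996.5 UMIs) than CD48-low cells (9014.5 to 10678).

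Joint gates on CD150, CD48 and CD135 protein were drawn after the classical definitions, and the cells in them differed in RNA. The stem gate (CD150 high, CD48 low, CD135 low) held 14.5% and 16.8% of Control cells, 8.13% and 13.1% of Ezh2 KO cells and 14.3% and 14.0% of Jarid2 KO cells. The MPP2 gate (CD150 high, CD48 high, CD135 low) held 2.62% and 7.24%, 6.72% and 7.80%, and 1.79% and 3.56% in the same order. The MPP3 gate (CD150 low, CD48 high, CD135 low) held 14.8% and 21.7%, 26.2% and 26.9%, and 13.2% and 13.7%. The MPP4 gate (CD135 high, CD150 low) held 52.3% and 32.9%, 49.8% and 36.6%, and 47.7% and 46.2%. Cells in none of the 4 gates made up 15.9% and 21.4%, 9.20% and 15.5%, and 23.0% and 22.5%. Exact (Clopper-Pearson) 95% intervals, which cover counting error only, were 12.5% to 13.8% for the female Ezh2 KO stem share and 13.7% to 15.4% for the male Control one.

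Transcripts of genes that no antibody read separated the gates as well. Among the 4 gates, all 8 genes of a stem cell list were highest in the stem gate, although Hlf stood higher still in cells of no gate (729 ± 45.7 CPM against 626 ± 19.4). Mecom, a stem cell factor, stood at 1053 ± 21.8 CPM in the stem gate (mean ± SD over 6 libraries), 355 in MPP2, 305 in MPP3 and 517 in MPP4, and Hoxb5 at 10.6 ± 1.99 against 1.36, 0.945 and 1.02. Of 5 megakaryocyte genes 3 were highest in MPP2, and Vwf and Gp9 were highest in the stem gate (32.8 and 22.0 CPM against 19.5 and 20.7 in MPP2). Pf4 was highest in MPP2, at 577 ± 258 CPM against 221 ± 107 in the stem gate and 13.0 and 6.73 in MPP3 and MPP4, and the erythroid and megakaryocyte factor Gata1 stood at 47.9 ± 10.8 in MPP2 against 8.99, 7.53 and 0.453. Of 5 myeloid genes 4 were highest in MPP3, and Cebpa was highest in MPP4 (28.4 CPM against 21.7 in MPP3). Mpo, the neutrophil peroxidase, was highest in MPP3 at 268 ± 129 CPM and stood at 2.86 ± 1.08 in the stem gate. Of 5 lymphoid genes 3 were highest in MPP4, and Il7r and Rag1 were highest in MPP3 (Rag1 34.0 CPM against 6.07 in MPP4). Satb1, a chromatin organiser of lymphoid cells, was highest in MPP4 at 295 ± 43.7 CPM against 13.6 ± 2.31 in the stem gate. The MPP3 gate also held the most Ebf1, a B-lineage factor, at 1620 ± 1124 CPM, and the most Il7r, at 136 ± 64.8, with a wide spread between libraries.

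The 6 sorting genes followed the gates to different degrees. Slamf1 RNA stood at 25.8 ± 2.58 CPM in the stem gate, 17.1 ± 3.57 in MPP2, 1.79 ± 0.425 in MPP3 and 0.390 ± 0.151 in MPP4. Cd48 RNA stood at 4.04 ± 1.02, 71.7 ± 17.1, 129 ± 16.7 and 107 ± 29.6 in the same order, and Flt3 RNA at 25.3 ± 4.56, 25.2 ± 5.97, 87.2 ± 22.0 and 468 ± 22.5. Of the 36 gate pairs tested over the 6 genes, 29 passed (exact sign-flip permutation p = 0.03125 in each, 0.0388 after BH adjustment over 36 tests). The antibodies of Slamf1, Cd48 and Flt3 define the gates, so the pairs of these genes describe the RNA side of the gates. A share of all genes that pass is not given here, so the count is a description. Of these 29, 2 turned direction under an alternative: Cd48 in MPP2 over MPP4 (-0.56, and 0.046 with the Control median as threshold) and Kit in MPP2 over MPP3 (0.35, and -0.02 without cells with B-lineage transcripts). MPP2, which carries CD48 protein, had less Cd48 RNA than MPP3 in 6 of 6 libraries (log2 ratio -0.87 ± 0.27), and MPP2 and stem cells, both CD135 low, did not differ detectably in Flt3 RNA (0.02 ± 0.31, exact permutation p = 0.9375).

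Procr, Kit and Ly6a took no part in the gates. Procr RNA stood at 44.6 ± 10.7 CPM in the stem gate, 4.81 ± 2.02 in MPP2, 9.03 ± 2.84 in MPP3 and 17.6 ± 5.43 in MPP4, so the stem gate was 9.58-fold above MPP2, 5.03-fold above MPP3 and 2.57-fold above MPP4, each in 6 of 6 libraries. CD201 antibody was also highest in the stem gate, with median counts of 95.75 UMIs there, 54.25 in MPP2, 37 in MPP3 and 45.5 in MPP4, but MPP2 ranked second by protein and last by RNA. Kit RNA was highest in the stem gate, at 358 ± 22.4 CPM against 270 ± 23.2 in MPP2, 213 ± 32.7 in MPP3 and 242 ± 24.6 in MPP4. CD117 antibody was instead highest in MPP2, with a median of 333.75 UMIs against 289 in the stem gate, 180 in MPP3 and 194.75 in MPP4. MPP2 exceeded the stem gate in 5 of 6 libraries, and in the male Ezh2 KO library it was lower (250 against 272.5 UMIs). MPP2 cells also held more RNA in all, at a median of 14377 to 19849 UMIs against 9532.5 to 11676 in the stem gate, and its part in these orders was not tested. Ly6a RNA was lowest in MPP2, at 24.5 ± 6.01 CPM against 66.9 ± 18.5 in the stem gate, 66.0 ± 27.4 in MPP3 and 56.8 ± 9.82 in MPP4, and the stem, MPP3 and MPP4 gates did not pass the test against each other (exact permutation p = 0.125 to 0.875). Sca1 antibody had its highest median in the stem gate, at 546 UMIs, and stood at 338, 316.5 and 383 in MPP2, MPP3 and MPP4.

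Between genotypes, CD48 protein moved most in mean log2 counts, with or without centring, but not as a share of antibody UMIs. The median CD48 count per cell was 840 and 619 UMIs for Control, 1514 and 1143 for Ezh2 KO and 540 and 418.5 for Jarid2 KO, in the order male, female. Both Ezh2 KO libraries lay above both Control libraries and both Jarid2 KO libraries lay below. To compare libraries, mean log2 counts were centred on the mean of the 6 antibodies in each library. CD48 then differed by 0.61 in Ezh2 KO against Control (1.52-fold), -0.55 in Jarid2 KO against Control (0.682-fold) and -1.16 in Jarid2 KO against Ezh2 KO (0.447-fold), with a pooled SD of 0.22 between libraries of a genotype. The exact two-sided permutation test on 2 against 2 libraries gave p = 0.333 each time, the smallest it can give, so this test cannot pass a threshold of 0.05. Within males the 3 differences were 0.75, -0.63 and -1.38, and within females 0.47, -0.47 and -0.94. Without centring they were 0.69, -0.46 and -1.15.

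The other 5 antibodies differed less in mean log2 counts, with or without centring. CD117 differed by -0.30 in Ezh2 KO against Control without overlap, and overlapped without centring (-0.21), with medians of 219 and 234 UMIs for Control, 175 and 211 for Ezh2 KO and 253 and 285 for Jarid2 KO. CD201 differed by -0.20 in Ezh2 KO, which overlapped without centring (-0.12), and by 0.16 in Jarid2 KO, both without overlap after centring, with medians of 54 and 50, 40 and 52, and 68 and 51 UMIs. CD150 (-0.02 and 0.06), CD135 (-0.02 and 0.12) and Sca1 (-0.07 and 0.02) overlapped between Control and both knockouts. The order depended on the scale. As log2 shares of antibody UMIs, CD48 differed by 0.25 in Ezh2 KO and -0.26 in Jarid2 KO against Control, and by -0.51 between the knockouts. In the same order CD117 differed by -0.45, 0.35 and 0.80, and CD201 by -0.48, 0.32 and 0.80.

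Cd48 RNA moved in the same directions as its protein. It stood at 95.7 and 77.7 CPM for Control, 120 and 103 for Ezh2 KO and 68.1 and 51.8 for Jarid2 KO, with no overlap between the groups. In edgeR's quasi-likelihood test on UMIs summed per library, with sex as a block, it rose in Ezh2 KO against Control by a log2 fold change of 0.41 (SE 0.05, BH-adjusted p = 0.0336 over 18165 genes), and it was lower in Jarid2 KO than in Ezh2 KO (-0.93, SE 0.05, adjusted p = 0.00776). Against Control the Jarid2 KO value of -0.52 (SE 0.05) did not pass (adjusted p = 0.0938). Cd48 was thus 1 of 6 sorting genes called in Ezh2 KO against Control, where 2.95% of all genes tested were called, and 1 of 6 in Jarid2 KO against Ezh2 KO, where 5.35% were. In Jarid2 KO against Control 0 of 6 were called by edgeR, where 0.0275% of all genes were, with 2 of 6 at an unadjusted p under 0.05 and 1 of 6 called by DESeq2. No share of all genes stands beside these last 2 counts, so they are a description. In summed libraries, fewer cells of a type and less RNA per cell cannot be told apart.

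The Cd48 call in Ezh2 KO against Control held in 1 of the 6 fits that left out a library, the one without the male Jarid2 KO library, with log2 fold changes of 0.37 to 0.45 and adjusted p of 0.0400 to 0.102. The call in Jarid2 KO against Ezh2 KO held in 6 of 6, at -0.98 to -0.87. With sex left out of the model, adjusted p was 0.335 and 0.0938 for these comparisons, and 0.762 for Jarid2 KO against Control.

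The remaining sorting genes were not called at baseline. Flt3 stood at 280 and 214 CPM for Control, 298 and 244 for Ezh2 KO and 289 and 239 for Jarid2 KO, higher in males than in females of each genotype (Ezh2 KO against Control 0.19, SE 0.05, edgeR adjusted p = 0.1). Kit stood at 273 and 264, 239 and 246, and 292 and 277 CPM, so that Ezh2 KO lay below and Jarid2 KO above Control without overlap (edgeR RNA log2 fold changes -0.10 and 0.10, adjusted p = 0.254 and 0.475). CD117 antibody in Jarid2 KO overlapped Control on the centred scale and stood above it in the uncentred medians given above. Without cells with B-lineage transcripts, chosen after seeing the data, Kit RNA stood at 299 and 273, 296 and 276, and 306 and 290 CPM. Both knockouts then overlapped Control. Ly6a stood at 60.9 and 49.1, 61.4 and 73.8, and 68.8 and 52.3 CPM, Procr at 29.1 and 15.7, 19.9 and 19.4, and 30.6 and 16.5, and Slamf1 at 4.49 and 6.59, 5.08 and 6.28, and 4.30 and 5.26. Without the male Ezh2 KO library Ly6a was called in Ezh2 KO against Control (0.63, adjusted p = 0.0399), and without the female one Procr was (-0.48, adjusted p = 0.0481).

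**Figure D3:**
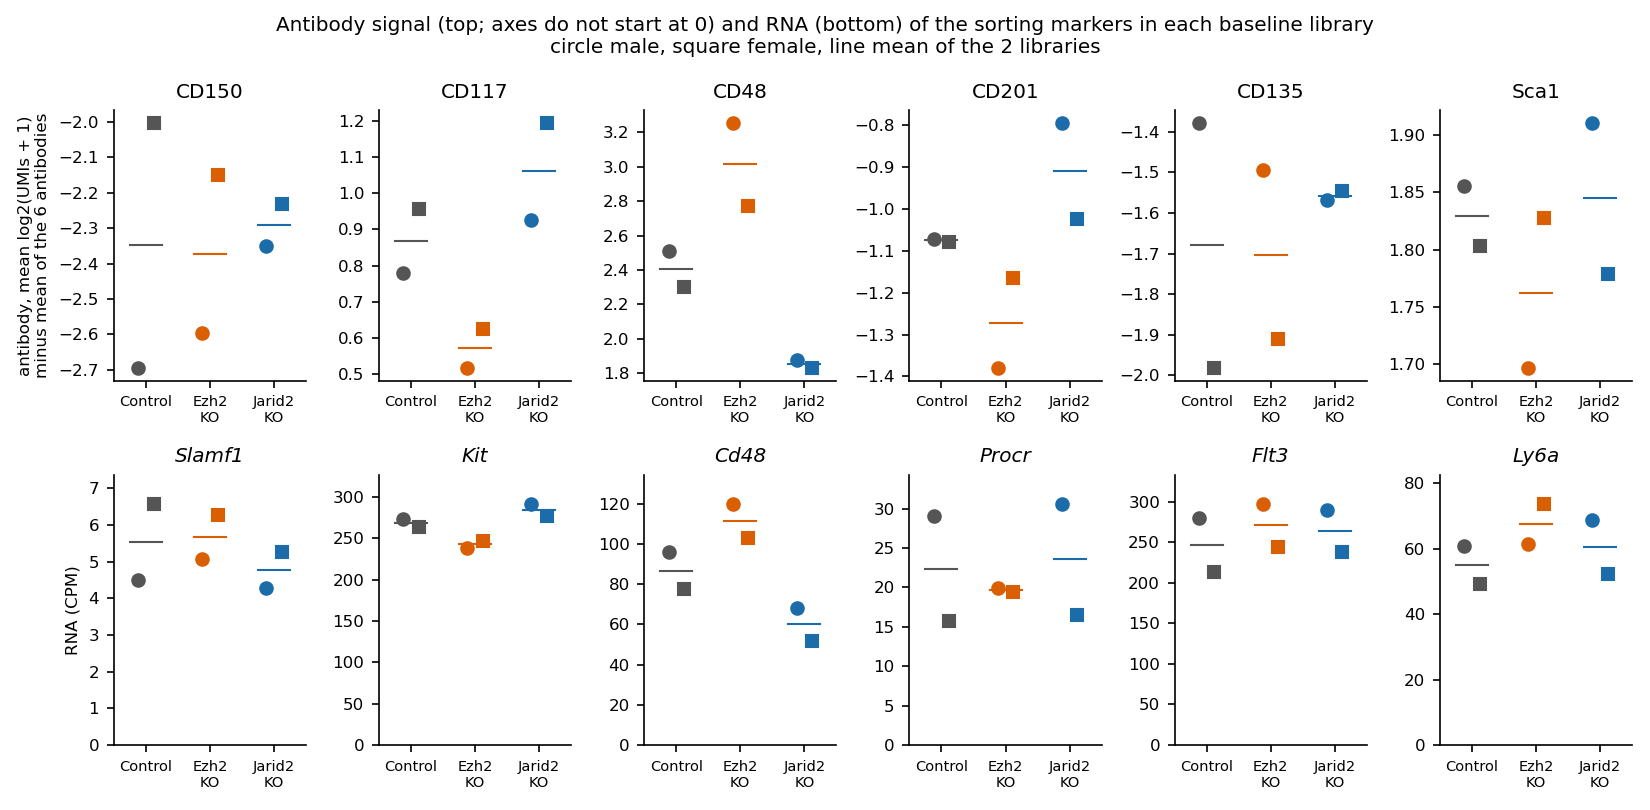
Antibody level (top, mean log2 UMIs centred within each library) and RNA level (bottom, CPM) of the 6 markers by genotype; each point is 1 baseline library, circles male and squares female, with a line at the mean of the 2 libraries. CD48 antibody and Cd48 RNA (95.7 and 77.7 CPM for Control, 120 and 103 for Ezh2 KO, 68.1 and 51.8 for Jarid2 KO) keep the 3 genotypes apart.

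Cells with B-lineage transcripts varied with genotype beside CD48. All 5 genes of a B-lineage list (Cd79a, Cd79b, Ebf1, Pax5 and Vpreb1) were detected in every library, and their summed level was 224 to 798 CPM for Control, 1100 to 2113 for Ezh2 KO and 330 to 347 for Jarid2 KO. Cells with at least 2 UMIs over the list made up 14.9% and 7.26% of Control, 35.1% and 19.3% of Ezh2 KO and 8.86% and 9.96% of Jarid2 KO cells. Their median CD48 count was 1144.5 to 1959.5 UMIs against 374 to 1137 in the other cells, and their median CD117 count 98 to 186 against 207 to 291. Summed T-cell and endothelial markers stayed at or under 1.15 CPM, and erythroid markers stood at 25.8 to 94.8 CPM, granulocyte markers at 3.42 to 9.75, mast and basophil markers at 14.2 to 26.6 and dendritic markers at 95.1 to 247, with 0 genes of these lists at 0 at baseline.

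Without the cells with B-lineage transcripts, an analysis chosen after seeing the data, CD48 kept its order between genotypes. The medians were 690 and 577 UMIs for Control, 1137 and 981 for Ezh2 KO and 487 and 374 for Jarid2 KO, without overlap, and the centred differences were 0.47, -0.52 and -0.99. Cd48 RNA was 90.6 and 74.9, 122 and 103, and 65.0 and 48.4 CPM. The edgeR log2 fold changes were 0.47, -0.54 and -1.004, with adjusted p of 0.0501, 0.0510 and 0.0066, so the call in Ezh2 KO against Control was lost while its fold change was larger. The CD117 difference in Ezh2 KO was -0.22 without these cells, and the CD201 difference in Jarid2 KO (0.14) then overlapped.

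CD48 also differed inside classes drawn without it. Among cells CD150 high and CD135 low, the median CD48 count was 150 and 243 UMIs for Control, 409 and 314 for Ezh2 KO and 114 and 136 for Jarid2 KO, and Cd48 RNA 17.6 and 31.0, 47.7 and 48.0, and 14.1 and 17.6 CPM. The centred difference was 0.78 for Ezh2 KO without overlap and -0.57 for Jarid2 KO with overlap. Among cells CD150 low and CD135 high the medians were 1307 and 900, 1705 and 1628, and 944 and 597 UMIs, and Cd48 RNA was 121 and 96.6, 144 and 128, and 91.3 and 62.5 CPM (centred differences 0.51 and -0.56). Among cells low for both the medians were 615.5 and 596, 1489.5 and 1041, and 320 and 342 (0.65 and -0.70).

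At a matched count of CD48 antibody, Cd48 RNA was closer between genotypes in some classes than in others. In cells with 512 to 1023 CD48 UMIs it was 58.2 and 56.8 CPM for Control, 59.1 and 57.1 for Ezh2 KO and 55.5 and 47.1 for Jarid2 KO. In cells with 1024 to 2047 it was 126 and 125 CPM, 118 and 106, and 112 and 90.0 in the same order, so that both knockouts lay below Control. In cells with 2048 or more it was 184 and 180, 181 and 182, and 162 and 165. In the lowest cells, under 128 UMIs, Ezh2 KO stood higher, at 5.02 and 7.21 CPM against 2.14 and 2.65 in Control and 2.02 and 2.15 in Jarid2 KO. The shares of cells at high and low CD48 also differed: 21.1% and 10.3% of Control cells, 31.6% and 23.7% of Ezh2 KO cells and 11.5% and 7.89% of Jarid2 KO cells had at least 2048 CD48 UMIs, and 12.8% and 7.96%, 4.72% and 4.95%, and 20.6% and 18.7% had under 128.

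**Figure D4:**
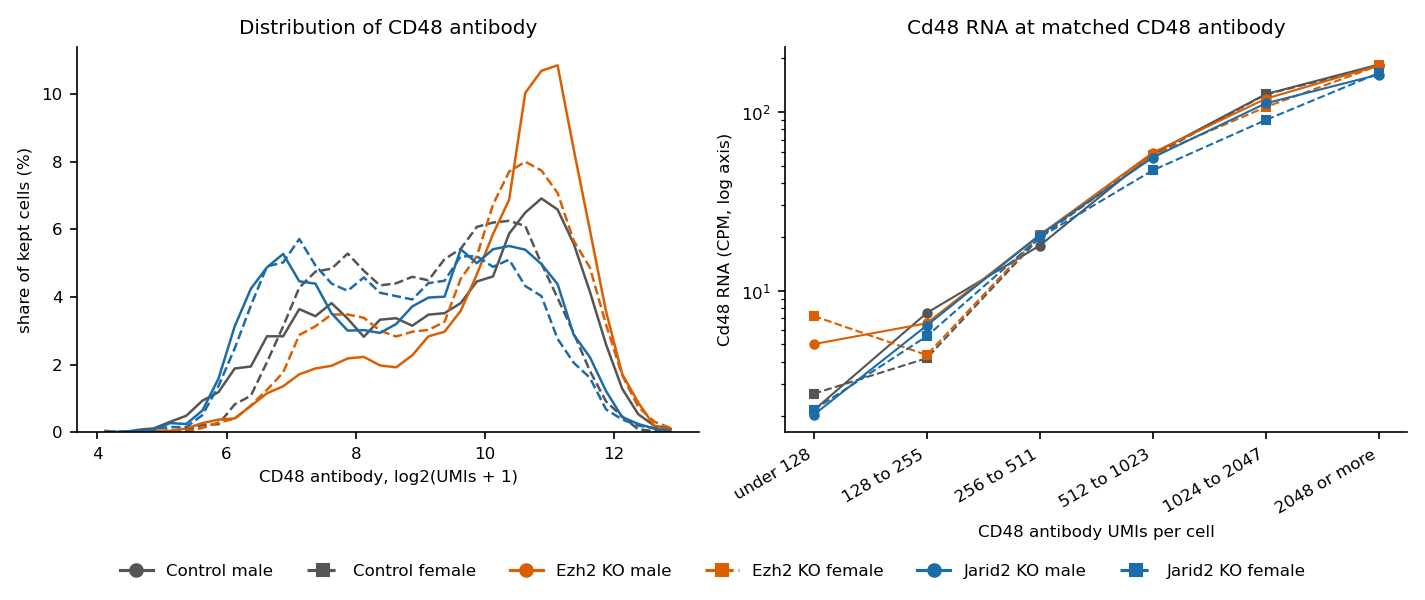
Left, share of kept cells (%) by CD48 antibody, log2(UMIs + 1); right, Cd48 RNA (CPM, log axis) in classes of CD48 antibody UMIs; each line is 1 baseline library, coloured by genotype, solid for male and dashed for female. Ezh2 KO has the most cells at 2048 UMIs or more (31.6% and 23.7%) and Jarid2 KO the most under 128 (20.6% and 18.7%).

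Shares of the gates that use CD48, and of cells in no gate, differed between genotypes. The stem gate differed from Control by -5.01 percentage points in Ezh2 KO and -1.497 in Jarid2 KO, and MPP3 differed by 8.32 points in Ezh2 KO and -4.80 in Jarid2 KO, without overlap (exact permutation p = 0.333 on 2 against 2 libraries, the smallest possible). The stem gate of Jarid2 KO lay close to Control in males (14.3% and 14.5%). These separations depended on the setting. With the Control median as threshold the stem gate overlapped Control in both knockouts, and for Jarid2 KO it also overlapped without centring (14.6% and 14.2% against 14.5% and 16.8%) and with centred log ratios in each cell, where the MPP3 gate of Jarid2 KO overlapped too. Between the knockouts MPP2 differed by -4.58 points in Jarid2 KO against Ezh2 KO, MPP3 by -13.1 and the stem gate by 3.51, without overlap. Against Control MPP2 overlapped, but within each sex it had 1 sign, with 4.10 points in males and 0.56 in females for Ezh2 KO and -0.83 and -3.68 for Jarid2 KO. MPP4, which does not use CD48, overlapped in each comparison (0.62, 4.41 and 3.79 points), and against Control its male and female differences had opposite signs. Cells in no gate differed without overlap in each comparison, by -6.26 points in Ezh2 KO and 4.14 in Jarid2 KO against Control and by 10.4 in Jarid2 KO against Ezh2 KO. For Ezh2 KO this class overlapped Control with the Control median as threshold, with doublets kept (10.4% and 17.3% against 16.6% and 22.8%) and without cells with B-lineage transcripts. For Jarid2 KO it overlapped Control without centring and with centred log ratios. Without the cells with B-lineage transcripts MPP3 held 11.1% and 20.6% of Control, 14.1% and 20.5% of Ezh2 KO and 11.2% and 11.5% of Jarid2 KO cells, so that both knockouts overlapped Control, and the stem gate then overlapped between the knockouts (14.6% and 14.8% against 10.7% and 14.9%).

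**Figure D5:**
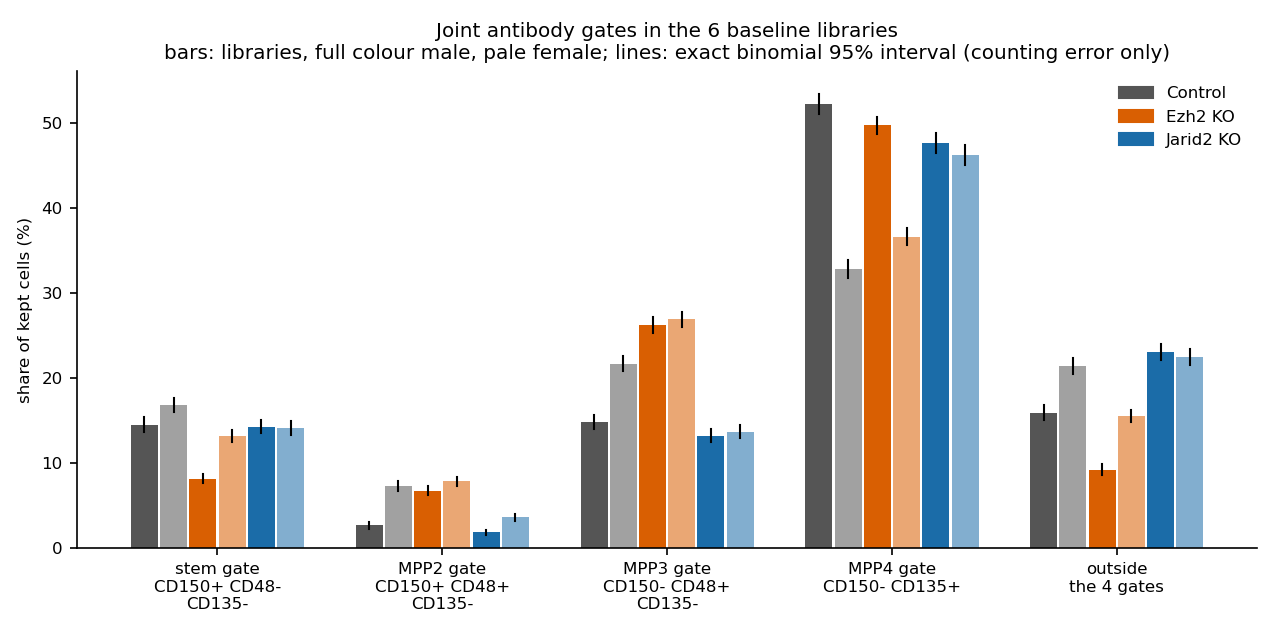
Share of kept cells (%) in each surface gate; each bar is 1 baseline library, coloured by genotype, full colour male and pale female, with exact binomial 95% intervals for counting error. MPP3 separates Ezh2 KO (26.2% and 26.9%) from Control (14.8% and 21.7%) and Jarid2 KO (13.2% and 13.7%), whereas the MPP4 shares overlap.

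RNA of the 6 sorting genes was also compared between genotypes within each of the 4 gates. In Ezh2 KO against Control 14 of the 24 gene and gate pairs did not overlap (12 higher, 2 lower), where 43% of all pairs did not, counted over the 13460 genes of at least 1 CPM. In Jarid2 KO against Control it was 7 of 24 (2 higher, 5 lower) where 38.1% of all pairs did not overlap, and in Jarid2 KO against Ezh2 KO 15 of 24 (2 higher, 13 lower) where 47.4% did not. Each had an exact permutation p of 0.333, the smallest for 2 against 2, so the values are a description. Cells with B-lineage transcripts were left in the gates, and their part in these values was not tested. MPP3 held 26.2% and 26.9% of Ezh2 KO cells with them, and 14.1% and 20.5% of the remaining cells without them. These shares were 14.8% and 21.7%, and 11.1% and 20.6%, in Control. In Jarid2 KO they were 13.2% and 13.7%, and 11.2% and 11.5%. Ly6a had the largest difference from Control in the MPP3 gate of Jarid2 KO, 2.21-fold (log2 difference 1.14), beside 0.34 in Ezh2 KO. Ly6a in Ezh2 KO also stood above Control in the stem and MPP4 gates (0.56 and 0.24), and in Jarid2 KO it stood below in MPP4 (-0.22). In males Ly6a in Ezh2 KO and Control was nearly equal in MPP3 (50.4 and 50.0 CPM) and in MPP4 (59.3 and 59.1). Cd48 RNA in Ezh2 KO stood above Control in the stem, MPP2 and MPP4 gates (0.47, 0.41 and 0.33) and below in MPP3 (-0.11), and in Jarid2 KO it stood below in MPP2, MPP3 and MPP4 (-0.32, -0.39 and -0.52). Slamf1 in Ezh2 KO stood above Control in the stem, MPP2 and MPP3 gates (0.21, 0.39 and 0.54), Flt3 in the stem and MPP4 gates (0.36 and 0.10) and Procr in MPP2 (0.60), whereas Kit stood below in MPP2 (-0.17). In females Kit in MPP2 was nearly equal, at 265.2 CPM in Ezh2 KO and 265.7 in Control. The other pairs without overlap in Jarid2 KO against Control were Slamf1 in MPP4 (-0.58) and Kit in MPP4 (0.20). That Slamf1 value rested on 15 and 10 UMIs in Jarid2 KO and 18 and 14 in Control. Some Ezh2 KO pairs also rested on few UMIs. In Control and Ezh2 KO these were 18 and 31, and 70 and 69, for Procr in MPP2. They were 17 and 38, and 69 and 65, for Slamf1 in MPP3, and 37 and 58, and 40 and 74, for Cd48 in the stem gate.

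After transplantation the sorting genes gave a different list. Cd48 stood at 152 CPM for Control, 165 and 160 for Ezh2 KO and 131 and 181 for Jarid2 KO (edgeR log2 fold changes 0.01 and -0.03 against Control), and no antibody was read. Ly6a stood at 33.8 CPM for Control, 20.8 and 24.1 for Ezh2 KO and 19.0 and 20.3 for Jarid2 KO. It fell in Ezh2 KO (-0.67, SE 0.11, edgeR adjusted p = 0.0248 over 15726 genes), the 1 of 6 genes called, where 4.6% of all genes were called, and the call was lost without either Ezh2 KO library (adjusted p = 0.119 and 0.0581). In Jarid2 KO against Control Ly6a stood at -0.84 (SE 0.11, adjusted p = 0.0553) and 0 of 6 genes were called by edgeR, where 0.318% of all genes were, with 2 of 6 at an unadjusted p under 0.05 and 1 of 6 called by DESeq2. No share of all genes stands beside these last 2 counts, so they are a description. In Jarid2 KO against Ezh2 KO 0 of 6 were called by edgeR, 0 of 6 by DESeq2 and 0 of 6 had an unadjusted p under 0.05, where 11.5% of all genes were called.

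Flt3 stood at 79.4 CPM in the transplant Control, 114 and 113 for Ezh2 KO and 93.2 and 98.4 for Jarid2 KO (0.43 and 0.22, edgeR adjusted p = 0.119 and 0.736). Kit stood at 150, 123 and 149, and 158 and 153 CPM. Procr and Slamf1 were lower than Control in both knockouts but not called (-0.33 and -0.48, and -0.55 and -0.53). Only 1 Control library stands behind these comparisons. Cells with Xist and no Y-linked RNA made up 59.2% of that Control and 48.4% and 49.2% of Jarid2 KO, against 0.0163% and 0.0511% of Ezh2 KO, so sex and genotype cannot be told apart between Ezh2 KO and the others. Mitochondrial filtering removed 43.4% of the barcodes of the transplant Control, 25.7% and 27.4% of Ezh2 KO and 36.6% and 37.4% of Jarid2 KO. At baseline it removed 2.82% to 5.82%. The part of this difference between genotypes was not tested.

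A list of 18 other surface genes of stem and progenitor cells was tested in the same fits. In Ezh2 KO against Control 2 rose and 1 fell, where 2.95% of all genes were called: Cxcr4, the CXCL12 receptor (0.59, edgeR adjusted p = 0.0391), Il7r, the interleukin-7 receptor of lymphoid cells (1.59, 0.0467), and the tetraspanin Cd9 (-0.45, 0.0320). In Jarid2 KO against Control 0 of 18 were called by edgeR, where 0.0275% of all genes were. Of the 18, 9 had an unadjusted p under 0.05 and 3, all lower, were called by DESeq2. The shares of all genes by these 2 measures are not given here, so these counts are a description. Against Ezh2 KO, where 5.35% of all genes were called, Eng rose (0.23, adjusted p = 0.0432) while Cd93 (-0.43, 0.0171) and Il7r (-1.36, 0.0474) fell. The list's median log2 fold changes were -0.08, -0.10 and 0.02, beside -0.00, 0.00 and 0.01 over all genes. Without the cells with B-lineage transcripts edgeR called 0 of 18 in each of the 3 baseline comparisons, with 5, 12 and 5 at an unadjusted p under 0.05. The all-gene calls of this fit are given below with the alternatives. No all-gene share at an unadjusted p is given, so these counts are a description. After transplantation 2 rose and 4 fell in Ezh2 KO against Control, where 4.6% of all genes were called, among them Il7r (1.75), Itga2b (-0.75) and Csf1r (-0.67). Cells with B-lineage transcripts made up 13.4% of the transplant Control, 28.1% and 22.1% of Ezh2 KO and 17.7% and 22.0% of Jarid2 KO cells, and the summed level of the B-lineage list was 43.4 CPM in Control, 292 to 375 in Ezh2 KO and 65.4 to 78.9 in Jarid2 KO. Without these cells 2 of the list rose and 2 fell in Ezh2 KO against Control, and the share of all genes called in that fit is not given here. Between Jarid2 KO and Control edgeR called 0 of 18 (7 had an unadjusted p under 0.05) and DESeq2 called 1 higher and 1 lower. With all kept cells edgeR called 0.318% of all genes in that comparison. No share of all genes at an unadjusted p or by DESeq2 stands beside these counts. Against Ezh2 KO, where 11.5% of all genes were called, Jarid2 KO had 6 higher and 3 lower, among them Il7r (-1.33), Tek (-1.17) and Fcgr3 (0.90).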

How the data were processed

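RNA and antibody tags were counted in the same KSL cells of 6 baseline libraries, and RNA alone in 5 transplant libraries. The authors deposited raw UMI counts per feature and barcode. Per the file headers the counting software was Cell Ranger, version 7.2.0 for the baseline matrices and 6.1.2 for the transplant ones, whereas the submitters' processing notes list Cell Ranger 3.1.0, Seurat 3.0, Partek and the build mm10. Levels are therefore tested within each experiment only. The H3K27me3 CUT&Tag samples were not analysed here.

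Cells with at least 1000 RNA UMIs, at least 500 genes and at most 10% mitochondrial UMIs were kept, and cells most like simulated doublets (6.13% to 8.30% of a library) were removed, which left 46839 baseline and 26471 transplant cells. Kept cells held 83743925 to 126217793 RNA UMIs per baseline library. RNA levels are UMIs per 1000000 UMIs over all genes (CPM), computed from pooled cells, and ratios between quintiles or gates used a prior count of 1. Genotype effects were tested with edgeR 4.0.16 (R 4.3.3; quasi-likelihood, TMM, two-sided, Benjamini-Hochberg over all genes, threshold 0.05) on UMIs summed per library, at baseline with sex as a block because the labels give 1 male and 1 female library per genotype. Paired ratios used exact two-sided sign-flip tests over 6 libraries, and antibody levels and gate shares exact two-sided permutation tests of 2 against 2. Antibody counts were compared as log2(UMIs + 1), centred on the mean of the 6 antibodies in each library. Alternatives were DESeq2 1.42.0, no filter on low counts, no sex term, doublets kept, other antibody scales and thresholds, and leaving out each library. Scripts were tested on simulated data, where edgeR made more false calls than its threshold states, which bears on calls near 0.05.

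The members and lists were chosen with earlier results of these data known. Named genes are the 6 members, the called genes of the 18-gene surface list (the 4 largest where over 4 or none were called), up to 4 genes of each gate marker list in listed order, and for each antibody the 5 steepest rising and 3 steepest falling genes with a mean of at least 20 CPM; 1 gene of the surface list is not reported by name here. Esam, Cd34, Gp9, Cebpa, Rag1 and Ebf1 lie outside this rule and were chosen after their values were seen. Intervals cover counting error only.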

Additional observations from a re-analysis of the deposited data

Results flagged for a closer look

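Some genotype effects pointed in opposite ways at baseline and after transplantation, in both libraries of each experiment. These differences were not tested, and the experiments also differ in counting software and share no Control. They differ too in the sex make-up of the libraries and in the share of barcodes removed by mitochondrial filtering, as given above. Ezh2 RNA in Ezh2 KO stood at 162 and 147 CPM at baseline (Control 209 and 192). After transplantation it stood at 38.6 and 46.6 CPM (Control 182). The part of each in the opposite signs was not tested. Ly6a RNA in Ezh2 KO against Control had a mean log2 ratio of 0.30 at baseline, from 0.011 in the male and 0.59 in the female library, and -0.59 after transplantation, so that its baseline sign rests on the female library. In Jarid2 KO against Control it was 0.13 and -0.78. Procr RNA in Jarid2 KO against Control was 0.0743 at baseline and -0.43 after transplantation.

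For 2 antibodies the male and female libraries moved in opposite directions by over 0.1 in each sex, with 1 library per sex and genotype and no test of the difference. Sca1 in both knockouts and CD135 in Ezh2 KO also changed sign against Control, with a smaller move in at least 1 sex. CD150 in Ezh2 KO against Control differed by 0.10 on the centred log2 scale in males and -0.15 in females, and in Jarid2 KO by 0.35 in males and -0.23 in females. CD135 in Jarid2 KO against Control differed by -0.19 in males and 0.44 in females. In the same way Procr RNA in Ezh2 KO against Control had a log2 ratio of -0.55 in males and 0.30 in females. The MPP4 gate share differed from Control by -2.51 percentage points in males and 3.76 in females of Ezh2 KO, and by -4.55 and 13.4 in Jarid2 KO.

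The transplant matrices, in which no antibody was read, still list 225 to 366 antibody UMIs per library, or 27.2 to 40.8 per 1000 barcodes.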

How the results depend on the processing

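All 6 genes passed along their own antibody, and 5 or 6 against the other antibodies, under each alternative run. Leaving out a library gives no test there, since 5 libraries cannot go below an exact p of 0.0625. For the genotype tests, DESeq2 called 2 sorting genes in place of 1 in baseline Ezh2 KO against Control, 1 in place of 0 in Jarid2 KO against Control and 2 in place of 1 in Jarid2 KO against Ezh2 KO, and after transplantation 2 in place of 1 and 1 in place of 0 against Control. With no replicate block (sex left out) the baseline counts were 0, 0 and 0, and over all genes 21, 1 and 53 in place of 535, 5 and 971. A replicate block over the 4 transplant knockout libraries called 0 sorting genes, as without it. Over all baseline genes DESeq2 called 1284, 227 and 1572. Without cells with B-lineage transcripts, chosen after seeing the data, 58, 16 and 117 genes were called, 0 sorting genes in Ezh2 KO against Control, and 1 in transplant Jarid2 KO against Control. With no filter on low counts 1 sorting gene was called in Jarid2 KO against Control in each experiment, and with doublets kept 1 after transplantation. Leaving out 1 library gave 0 to 1, 0 to 0 and 1 to 2 baseline calls and 0 to 1 in transplant Ezh2 KO against Control. The only transplant Control could not be left out.

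Antibodies not overlapping were 3 (Ezh2 KO and Control), 2 (Jarid2 KO and Control) and 3 (both knockouts). They were 1 for Ezh2 KO and Control without centring, 5 for Jarid2 KO and Control and 6 for both knockouts on the share scale, 1 for Jarid2 KO and Control without B-lineage cells, and 3 to 6, 3 to 5 and 3 to 6 with 1 library left out. Gates not overlapping were 2, 2 and 3. Without B-lineage cells they were 1, 1 and 2. For Ezh2 KO and Control they were 3 with centred log ratios in each cell, and for Jarid2 KO and Control 1 with the Control median as threshold, 1 without centring and 0 with centred log ratios. With 1 library left out they were 2 to 4, 2 to 4 and 3 to 4. The log2 ratio of Cd48 RNA MPP2 over MPP4 turned from -0.56 to 0.046 with the Control median as threshold, and that of Kit RNA MPP2 over MPP3 from 0.35 to -0.0219 without B-lineage cells. Of 1062 single values under alternatives, 61 uncalled ones changed sign. The cause was not tested.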

Other observations

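Some other surface genes also differed between the protein gates, and no tally over the list of 18 is given. Esam, an adhesion molecule, stood at 53.5 ± 3.82 CPM in the stem gate (mean ± SD, n = 6 libraries), 17.7 ± 3.22 in MPP2, 11.7 ± 2.69 in MPP3 and 6.45 ± 1.21 in MPP4. Tek, an angiopoietin receptor, stood at 29.9 ± 1.61, 16.9 ± 3.56, 6.07 ± 2.16 and 2.33 ± 0.675 CPM in the same order. Cd34 ran the other way, at 82.4 ± 9.68, 99.3 ± 18.5, 193 ± 56.1 and 336 ± 21.6 CPM.

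Procr RNA was 29.1 CPM in the male and 15.7 in the female Control library, 30.6 and 16.5 in Jarid2 KO, and 19.9 and 19.4 in Ezh2 KO. With 1 library per sex and genotype this was not tested.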
